A study of Mus musculus with 9 samples.

Results

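The genes described here are 10 smooth muscle and actin cytoskeleton genes that are known targets of serum response factor: Acta2, Actg2, Tagln, Cnn1, Cnn2, Myl9, Tpm1, Tpm2, Vcl and Srf. They were chosen by symbol, from a list made with earlier results of these data known. Member counts set beside the share of all genes below are therefore descriptions and not independent tests. All 10 were found among the 37990 genes listed in the deposited counts, and 9 of them were among the 14465 genes tested. Actg2 had too few reads to be tested. RNA sequencing was done on mouse embryonic stem cells of the E14 line, grown in serum and leukaemia inhibitory factor on gelatin. One group of 3 libraries carried a lentiviral pLKO.1 short hairpin against Fam60a, which the mouse annotation now calls Sinhcaf, and a second group of 3 carried a hairpin against Sin3a. The control group of 3 libraries, titled T2SC, carried a non-targeting scrambled hairpin in the same vector and was identified as the control by elimination. Cells of each group had been selected with puromycin and passaged before harvest, so all 9 libraries share transduction and selection. The labels name no second hairpin per target in these libraries, and describe the 3 libraries of a group as biological replicates.

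Serum response factor, the product of Srf, is a transcription factor that binds the CArG box, a short element with a core of A and T bases flanked by C on one side and G on the other. Its partners of the myocardin family, Mrtfa and Mrtfb, are held in the cytoplasm by monomeric actin and enter the nucleus when actin polymerizes, so that genes for actin and actin-binding proteins follow the state of the cytoskeleton. Myocardin itself drives the contractile genes of smooth muscle. Sin3a scaffolds a corepressor complex that carries histone deacetylases, to which Fam60a belongs. Embryonic stem cells are not contractile, and smooth muscle genes are usually weakly expressed in them.

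RefSeq promoters on GRCm38.p6, from 250 bases before to 50 bases after the start of transcription, were on hand for 8 of the 10 members, the exceptions being Actg2 and Tagln. A CArG box was searched for as a pair of C, 6 bases that are each A or T, and a pair of G, a pattern that reads as the same class on both strands. It was present in the promoters of 4 of these 8 members. By gene, 488 of all 27025 genes with a promoter held it (1.81%), and by promoter, 535 of 32851 of the same length (1.63%). The members were listed as known targets of serum response factor, so their share is a description and not a test. Srf carried 2 boxes, which began 82 and 62 bases before its start site, that of Cnn2 began 56 bases before, that of Myl9 161 bases before and that of Vcl 227 bases before. The promoters of Acta2 and Tpm1 each held 2 runs that miss the pattern at 1 base, a looser match found in 21.1% of all promoters. Those of Srf and Myl9 each held 1 such run beside their full boxes, and those of Cnn1 and Tpm2 held neither kind of match. The 4 promoters with a full box are shown because they carry the element, and that of Acta2 because this gene had the largest fitted difference after Fam60a knockdown. Capitals mark the full boxes in the first 4 sequences and the 1-mismatch runs in that of Acta2, and every sequence reads 5′ to 3′ on the gene's own strand.
Srf, chr17:46556113-46556412, minus strand: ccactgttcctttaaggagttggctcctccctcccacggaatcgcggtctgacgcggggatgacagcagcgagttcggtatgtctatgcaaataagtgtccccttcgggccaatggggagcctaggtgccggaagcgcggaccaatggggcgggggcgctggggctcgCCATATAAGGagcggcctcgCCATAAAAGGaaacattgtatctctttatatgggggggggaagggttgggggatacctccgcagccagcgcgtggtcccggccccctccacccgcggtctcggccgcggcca
Cnn2, chr10:79988350-79988649, plus strand: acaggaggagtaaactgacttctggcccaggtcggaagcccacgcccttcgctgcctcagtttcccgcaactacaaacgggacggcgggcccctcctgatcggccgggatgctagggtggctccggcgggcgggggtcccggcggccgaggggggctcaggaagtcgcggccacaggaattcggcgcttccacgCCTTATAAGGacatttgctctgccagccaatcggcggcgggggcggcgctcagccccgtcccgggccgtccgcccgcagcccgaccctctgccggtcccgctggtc
Vcl, chr14:20929148-20929447, plus strand: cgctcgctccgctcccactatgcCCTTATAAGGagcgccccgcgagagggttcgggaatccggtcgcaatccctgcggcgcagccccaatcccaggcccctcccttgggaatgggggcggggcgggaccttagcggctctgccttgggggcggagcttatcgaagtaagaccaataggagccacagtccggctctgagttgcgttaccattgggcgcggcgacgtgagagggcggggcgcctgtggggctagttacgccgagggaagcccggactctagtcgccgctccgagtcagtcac
Myl9, chr2:156775214-156775513, plus strand: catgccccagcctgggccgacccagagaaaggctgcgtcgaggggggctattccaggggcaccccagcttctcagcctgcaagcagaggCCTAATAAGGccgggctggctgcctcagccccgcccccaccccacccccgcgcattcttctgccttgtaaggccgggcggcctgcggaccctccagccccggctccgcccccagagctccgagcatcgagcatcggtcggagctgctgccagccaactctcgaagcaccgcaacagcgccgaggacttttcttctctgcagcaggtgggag
Acta2, chr19:34255324-34255623, minus strand: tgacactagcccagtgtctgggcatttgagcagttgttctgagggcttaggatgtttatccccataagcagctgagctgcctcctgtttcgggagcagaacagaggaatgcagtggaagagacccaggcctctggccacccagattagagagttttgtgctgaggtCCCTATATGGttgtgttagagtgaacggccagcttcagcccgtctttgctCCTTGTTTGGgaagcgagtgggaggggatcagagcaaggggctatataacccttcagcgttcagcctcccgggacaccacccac
These matches describe letters in a window and do not show binding, and a run with a mismatch does not show its absence.

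**Figure D1:**
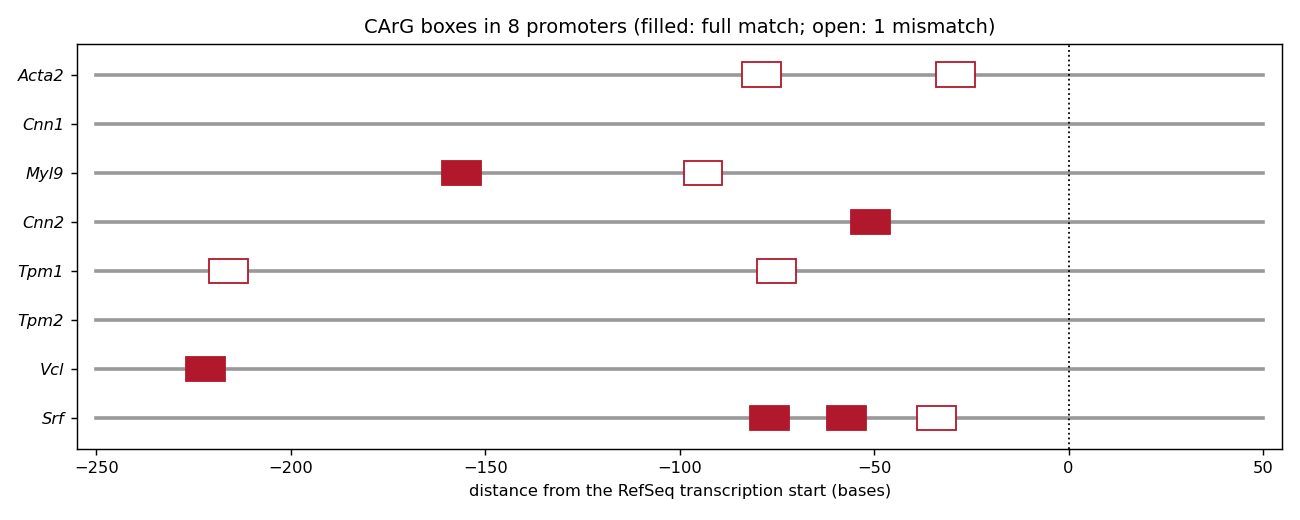
Positions of CArG-box matches in the promoters of the 8 members that have a RefSeq promoter, as distance in bases from the start of transcription. Filled bars are full matches and open bars are runs with 1 mismatch. Srf has 2 full boxes within 82 bases of its start, while the box of Vcl lies 227 bases away.

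The libraries held 2607872 to 7674887 counted reads. Sin3a knockdown replicate 3 was the shallowest and stood apart: it had 90 mitochondrial reads against 6268 to 7118 in the other 8 libraries, and a mean correlation across genes of 0.885 with its own group against 0.935 to 0.981. Compared on the log2 scale with replicates 1 and 2, its genes of lowest GC content (up to 41.6%) had a median difference of -1.23, and those of highest GC content (58.1% and above) one of 0.794. The members have an exon GC content of 48.6% (Vcl) to 64.4% (Srf), so each tested member's Sin3a value below is given with and without that library. Each target was lower in the libraries that carry its own hairpin. Fam60a averaged 13.5 ± 0.472 CPM (reads relative to library depth, scaled for library composition, SD, n = 3) in controls and 5.73 ± 0.753 in Fam60a knockdown, a log2 difference of -1.23 (SE 0.23, adjusted p = 0.028). Its call did not hold in 11 of 18 alternative analyses (adjusted p 3.65e-05 to 0.133), among them the omission of any 1 library other than Sin3a knockdown replicate 3. Sin3a fell from 286.7 ± 21.9 to 125.7 ± 13.4 CPM in Sin3a knockdown (log2 difference -1.19, SE 0.11, adjusted p = 0.00149), and this call held in all 18. Sin3a was also lower in all 3 Fam60a knockdown libraries than in any control, at 216.7 ± 9.90 CPM (log2 difference -0.40, SE 0.11, adjusted p = 0.0964, or 0.00466 without Sin3a knockdown replicate 3).

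Levels in the controls spanned a wide range, compared here as RPKM, that is CPM divided by exon length in kilobases. Srf was the highest at 41.4 ± 0.881 RPKM (SD, n = 3), followed by Cnn2 at 30.9 ± 2.41, Vcl at 27.0 ± 2.55, Tpm1 at 20.4 ± 1.12 and Tpm2 at 14.2 ± 0.596. Cnn2 and Vcl overlapped between libraries and cannot be ordered. Myl9 was lower at 6.68 ± 1.06 RPKM. Tagln (1.81 ± 0.148), Acta2 (1.13 ± 0.861) and Cnn1 (0.990 ± 0.285) overlapped with their neighbours in this order, and Actg2 was last at 0.256 ± 0.189. By reads the members fell into 5 cytoskeletal or regulatory genes with 815 to 4369 control reads each and 5 smooth muscle contractile genes with 8 to 153. Acta2 is the only member that shares 50-base stretches with transcripts of other genes, in 7 of its 2146 windows (0.326%). The exons of Tagln overlap those of Pcsk7 on the opposite strand, and those of Vcl overlap Ap3m1. The preparation was stranded, and a tag in the names of the deposited counts may mean reverse-stranded counting. No header or protocol states it, so reads of these pairs cannot be told apart with certainty.

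**Figure D2:**
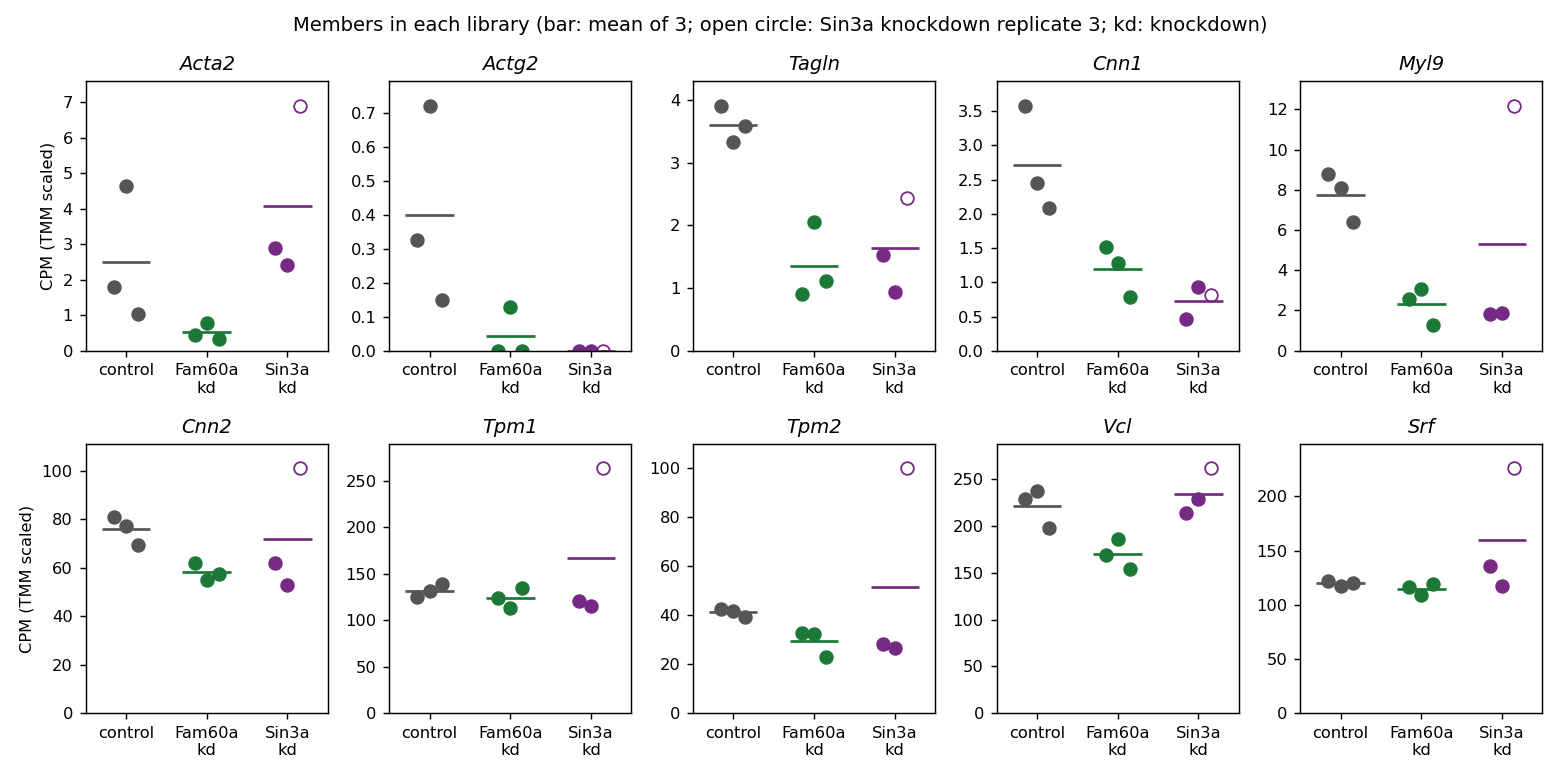
CPM of the 10 members, 1 panel each with a linear axis from 0, in the control, Fam60a knockdown and Sin3a knockdown libraries. Each point is 1 library, bars are means of 3, and the open circle is Sin3a knockdown replicate 3. The Fam60a knockdown points of Myl9 (1.27 to 3.08 CPM) lie below the 3 control points, and Sin3a knockdown replicate 3 (12.2 CPM) lies above them.

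After Fam60a knockdown, every tested member had a fitted value below that of the controls, and the contractile genes had the largest differences. Over the 9 tested members the median log2 difference was -0.49, against -0.02 over all genes tested. None of the 9 passed an adjusted p of 0.05 in the edgeR fit of all 9 libraries, in which 2.92% of all genes were called (423 genes, or 887 with the replicate number as a block). At an unadjusted p under 0.05 the members passing were 5 of 9, against 15.7% of all genes. DESeq2 also called 0 of 9, against 1184 of 16136 genes. When Sin3a knockdown replicate 3 was left out, the fitted differences barely moved, and the SE fell for each tested member but Cnn1. The same edgeR test then called 6 of 9 members, all lower, against 16.9% of all genes called and 7.77% called lower. These 6 were Acta2, Tagln, Cnn2, Myl9, Tpm2 and Vcl. In 7 of 9 members every Fam60a knockdown library lay below every control, a pattern found in 18.2% of all genes tested. Acta2, Tagln and Cnn1 are among these 7, and Acta2 and Tagln among the 6 called. They passed the filter on low counts, described below, through groups in which they were high, so they are not free tests of this difference. Bulk RNA cannot tell fewer cells expressing a gene from less RNA per cell.

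Acta2 encodes smooth muscle alpha-actin, the main actin of the contractile apparatus (ENSMUSG00000035783, GRCm38 chr19:34241090-34255590, minus strand). It stood at 1.79, 4.63 and 1.04 CPM in control replicates 1 to 3 and at 0.453, 0.770 and 0.316 CPM in Fam60a knockdown. The groups did not overlap, although the control libraries themselves were far apart. On the log2 scale the difference was -2.21 (SE 0.71, adjusted p = 0.149, or 0.0433 without Sin3a knockdown replicate 3). These values rest on 50 control reads and 11 Fam60a knockdown reads.

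Actg2 encodes the enteric form of smooth muscle actin (ENSMUSG00000059430, chr6:83512905-83536265, minus strand). Its reads numbered 2, 5 and 1 in the controls, 0, 1 and 0 in Fam60a knockdown and 0 in each Sin3a knockdown library. Relative to total reads, the control level was 8.37 times that of Fam60a knockdown, with an exact 95% interval of 1.12 to 371 that covers counting error only. Against Sin3a knockdown the control level was 2.00-fold higher by the read totals when a floor of 3 counts over the group replaced the 0. This value leaves out the counting error of the control reads and is no lower bound. The exact 95% interval of the ratio begins at 1.28. The gene was at the limit of detection in all 3 groups.

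Tagln encodes transgelin, an actin-binding protein that marks early smooth muscle (ENSMUSG00000032085, chr9:45929619-45936058, minus strand). It had 3.91, 3.33 and 3.58 CPM in the controls and 0.906, 2.05 and 1.11 CPM in Fam60a knockdown. The controls were tightly grouped and lay above all 3 knockdown libraries. The log2 difference was -1.38 (SE 0.41, adjusted p = 0.116, or 0.0354 without Sin3a knockdown replicate 3). Pcsk7, on the opposite strand, went the other way, with a mean of 57.3 ± 3.73 CPM in controls and 66.3 ± 3.57 in Fam60a knockdown, and was not called (adjusted p = 0.714).

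Cnn1 encodes calponin 1, which binds actin and restrains myosin activity in smooth muscle (ENSMUSG00000001349, chr9:22099216-22109630, plus strand). The control libraries held 3.58, 2.46 and 2.09 CPM, and Fam60a knockdown 1.51, 1.28 and 0.791 CPM. They did not overlap, but the log2 difference of -1.16 (SE 0.39) was not called with all libraries (adjusted p = 0.169) or without Sin3a knockdown replicate 3 (0.0791). With the replicate number as a block over those 8 libraries it was called (-1.15, adjusted p = 0.021), as were 7 of 9 members, against 39.6% of all genes. Myl9 encodes the regulatory light chain of smooth muscle and non-muscle myosin (ENSMUSG00000067818, chr2:156775420-156781658, plus strand). Its controls stood at 8.80, 8.10 and 6.41 CPM against 2.57, 3.08 and 1.27 CPM in Fam60a knockdown, again without overlap. The fitted log2 difference came to -1.73 (SE 0.70, adjusted p = 0.261), and the SE fell to 0.33 and the adjusted p to 0.00867 without Sin3a knockdown replicate 3.

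Among the abundant cytoskeletal members the differences were smaller. Vcl encodes vinculin, which links integrin and cadherin adhesions to actin (ENSMUSG00000021823, chr14:20929398-21033676, plus strand). It stood at 228, 237 and 198 CPM in controls and 169, 186 and 153 CPM in Fam60a knockdown, with no overlap. The log2 difference was -0.38 (SE 0.13, adjusted p = 0.154, or 0.0208 without Sin3a knockdown replicate 3). Ap3m1 on the opposite strand averaged 64.8 ± 2.11 and 64.0 ± 3.72 CPM in the same groups.

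Cnn2 encodes the calponin of non-muscle cells (ENSMUSG00000004665, chr10:79988584-79996062, plus strand). Its controls stood at 81.0, 77.5 and 69.4 CPM and its Fam60a knockdown libraries at 61.9, 54.9 and 57.6 CPM, so that all 3 were below the controls. Its log2 difference from control was -0.39 (SE 0.22, adjusted p = 0.495, or 0.0288 without Sin3a knockdown replicate 3). Tpm2, one of the genes for tropomyosins that coat actin filaments (ENSMUSG00000028464, chr4:43514711-43523765, minus strand), had 42.7, 41.8 and 39.3 CPM in controls and 32.6, 32.5 and 23.1 CPM in Fam60a knockdown, also without overlap. Its log2 difference was -0.49 (SE 0.46, adjusted p = 0.78, or 0.0487 without that library).

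The last pair, Tpm1 and Srf, showed little difference. Tpm1, a second tropomyosin gene (ENSMUSG00000032366, chr9:67022590-67049406, minus strand), had 125, 132 and 139 CPM in controls and 124, 113 and 134 CPM in Fam60a knockdown, and the groups overlapped (log2 difference -0.09, SE 0.28, adjusted p = 0.977). Srf itself (ENSMUSG00000015605, chr17:46548329-46556175, minus strand) had 122, 117 and 119.8 CPM in controls against 117, 109 and 119.7 CPM. Its log2 difference was -0.06 (SE 0.21, adjusted p = 0.981), and without Sin3a knockdown replicate 3 it was -0.05 (SE 0.07, adjusted p = 0.712). Of the 4 members with a full CArG box, Cnn2, Myl9 and Vcl were among the 6 called lower without that library, and Srf was not. The rest of the 6 were Acta2 and Tpm2, with no full box, and Tagln, with no promoter to search. In that fit 7.77% of all genes were called lower. Whether the box goes with the calls was not tested.

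**Figure D3:**
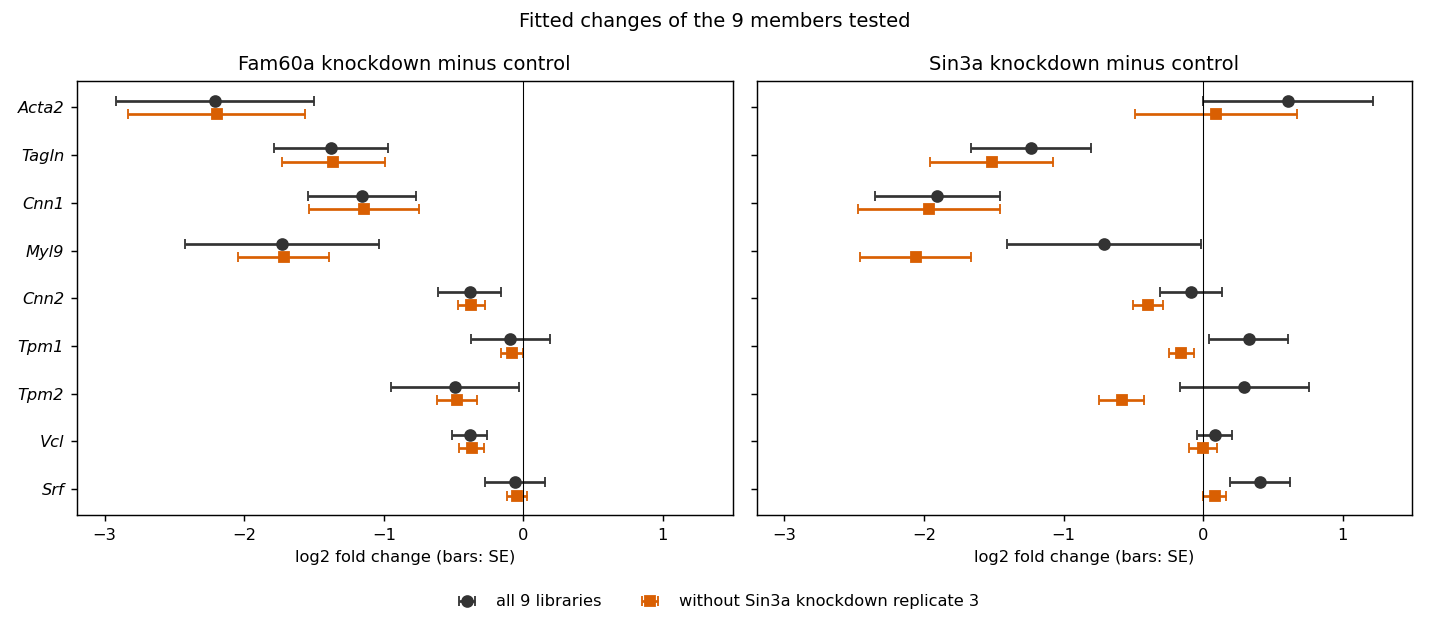
Fitted log2 differences from control with SE for the 9 tested members, for Fam60a knockdown and Sin3a knockdown, from all 9 libraries and from 8 libraries without Sin3a knockdown replicate 3. The Fam60a values hardly move between the fits, while Myl9 in Sin3a knockdown goes from -0.71 to -2.06.

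The filter on low counts bears on the weakly expressed members. A gene was kept when it reached 10 counts at the median depth (1.54 CPM) in 3 libraries. Tagln and Cnn1 reached this in all 3 controls and at most 1 library of either knockdown. Acta2 reached it in 3 Sin3a knockdown, 2 control and 0 Fam60a knockdown libraries. These 3 members thus passed through the groups in which they were high. The 6 members above this level in at least 2 libraries of every group were Cnn2, Myl9, Tpm1, Tpm2, Vcl and Srf. After Fam60a knockdown 0 of these 6 were called with all libraries, against 2.92% of all genes. Without Sin3a knockdown replicate 3, 4 were called, against 16.9%. All 3 knockdown libraries lay below the controls in 4 of the 6, against 18.2% of all genes.

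After Sin3a knockdown the members did not move as 1 group. Cnn1 was the 1 member of 9 called lower, against 10.2% of all genes called in this comparison. The median log2 difference of the members was 0.08, against -0.01 over all genes tested. Without Sin3a knockdown replicate 3 the median was -0.40, and 5 of 9 members were called, all lower: Tagln, Cnn1, Cnn2, Myl9 and Tpm2. In that fit 24.5% of all genes were called and 13.5% were called lower. Every Sin3a knockdown library lay below every control in 2 of 9 members (Tagln and Cnn1) with all libraries, against 18.5% of all genes. Without replicate 3 this held in 6 of 9, against 28.6%. Tagln and Cnn1 passed the filter through their controls and so are not free tests of the Sin3a difference. The same 3 controls serve both knockdowns, so these values are not independent of those for Fam60a.

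Cnn1 stood at 0.457, 0.929 and 0.812 CPM in Sin3a knockdown replicates 1 to 3, all below the lowest control of 2.09 CPM. The log2 difference was -1.90 (SE 0.45, adjusted p = 0.0285), and -1.97 (SE 0.51, adjusted p = 0.0226) without replicate 3. It rests on 53 control reads against 10. The call was lost when any 1 library other than Fam60a knockdown replicate 3 or Sin3a knockdown replicate 3 was left out, and with the 6 libraries of the comparison alone (adjusted p 0.00331 to 0.115 over the alternatives). Tagln had 1.53, 0.929 and 2.44 CPM, also below all controls. Its log2 difference was -1.23 (SE 0.43, adjusted p = 0.107), or -1.52 (SE 0.44, adjusted p = 0.0339) without replicate 3.

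Replicate 3 differed most from its group in Myl9. This gene had 1.83 and 1.86 CPM in replicates 1 and 2, under the lowest control of 6.41, and 12.2 CPM in replicate 3, above the highest. The difference in log2 was -0.71 (SE 0.69, adjusted p = 0.554) with all libraries and -2.06 (SE 0.40, adjusted p = 0.00681) without replicate 3. Tpm2 behaved alike, with 28.4, 26.6 and 99.9 CPM, and its value changed sign from 0.29 (SE 0.46, adjusted p = 0.72) to -0.58 (SE 0.16, adjusted p = 0.0287). Cnn2 had 62.1, 52.9 and 101 CPM, and its log2 difference went from -0.09 (SE 0.22, adjusted p = 0.832) to -0.40 (SE 0.11, adjusted p = 0.0276).

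The remaining members gave no call in either fit. Tpm1 had 121, 116 and 264 CPM, and Srf 136, 117 and 226 CPM, in Sin3a knockdown replicates 1 to 3. Without replicate 3 their log2 differences were -0.16 (SE 0.09, adjusted p = 0.229) and 0.08 (SE 0.08, adjusted p = 0.495). With all libraries Tpm1 stood at 0.33 (SE 0.28, adjusted p = 0.508), so its sign changed between the fits. In the same fit Srf stood at 0.41 (SE 0.22, adjusted p = 0.274), and a correction for GC content brought Srf to a call (adjusted p = 0.0495, or 0.0398 with the replicate block as well). Vcl stood at 213, 228 and 261 CPM, which overlapped the controls (log2 difference 0.08, SE 0.13, adjusted p = 0.713). Without replicate 3 the difference was -0.0009 (SE 0.10, adjusted p = 0.996). Acta2 had 2.90, 2.41 and 6.91 CPM, of which replicates 1 and 2 lay within the control range and replicate 3 above it. Its log2 difference was 0.61 (SE 0.61, adjusted p = 0.566) with all libraries and 0.09 (SE 0.58, adjusted p = 0.927) without replicate 3. Of the 6 members that did not rest on 1 group to pass the filter, 0 were called with all libraries, against 10.2% of all genes. Without replicate 3, 3 of these 6 were called, against 24.5%.

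Across members, replicate 3 exceeded the mean of replicates 1 and 2 by 6.61-fold in Myl9, 3.64-fold in Tpm2, 2.60-fold in Acta2, 2.23-fold in Tpm1 and 1.99-fold in Tagln. The ratios were 1.78 for Srf, 1.76 for Cnn2, 1.18 for Vcl and 1.17 for Cnn1. The exon GC content was 56.6% for Myl9, 55.1% for Tpm2, 49.6% for Acta2, 49.7% for Tpm1 and 64.4% for Srf. Ap3m1, opposite Vcl, was at 11.4 CPM in this library against 73.5 and 77.1 in replicates 1 and 2. The part of this library's composition in the Sin3a values was not tested.

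**Figure D4:**
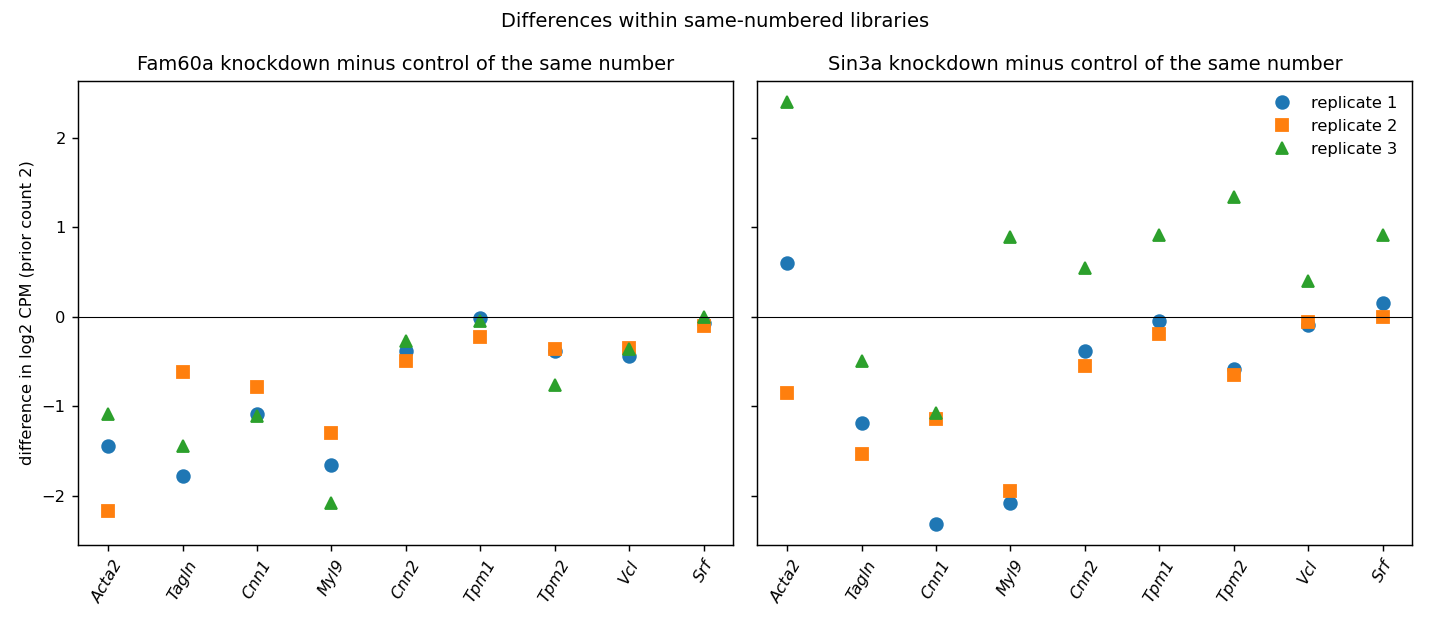
Log2 differences between each knockdown library and the control library of the same replicate number for the 9 tested members, from log2 CPM with a prior count of 2. All Fam60a points lie below 0, and the Sin3a point of replicate 3 lies above 0 for Acta2, Tpm2 (1.34), Tpm1 (0.92), Srf (0.91), Myl9 (0.89), Cnn2 (0.54) and Vcl (0.40).

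Within replicate numbers the Fam60a differences were negative in all 3 pairs for each tested member. The share of all genes with 3 negative pairs was not computed for either knockdown, so these signs are no result about the members as a set. They ran from -1.09 to -2.17 in Acta2, from -0.62 to -1.78 in Tagln, from -1.31 to -2.08 in Myl9 and from -0.35 to -0.43 in Vcl. Srf differed by -0.001 to -0.11, and Tpm1 by as little as -0.01 in replicate 1. In Sin3a knockdown the differences were negative in all 3 pairs for Tagln (-0.50 to -1.54) and Cnn1 (-1.08 to -2.32) alone among the tested members.

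In the direct comparison of the knockdowns Acta2 and Vcl had the smallest adjusted p-values, and neither was called with all libraries. Of the 9 members 0 passed in edgeR, against 3.06% of all genes (443 genes, or 672 with the replicate number as a block). At an unadjusted p under 0.05 there were 2, against 18.1% of all genes, and DESeq2 called 2, against 8.46%. Acta2 was lower in all 3 Fam60a knockdown libraries (0.316 to 0.770 CPM) than in any Sin3a knockdown library (2.41 to 6.91 CPM). The log2 difference was -2.82 (SE 0.72, adjusted p = 0.0753, or 0.0544 without Sin3a knockdown replicate 3), and its adjusted p ran from 0.00648 with DESeq2 to 0.223 over the alternatives. With the replicate block over those 8 libraries Acta2 was called (-2.04, adjusted p = 0.0106), as were 2 of 9 members, against 36.1% of all genes. Acta2 passed the filter through its Sin3a knockdown libraries and so is not a free test of this difference. Vcl was lower in Fam60a knockdown (153 to 186 CPM) than in Sin3a knockdown (213 to 261 CPM) by -0.47 on the log2 scale (SE 0.13, adjusted p = 0.0866). Without replicate 3 the difference was -0.37 (SE 0.10, adjusted p = 0.0342), and Vcl was the 1 member called, against 14.7% of all genes. The other 7 members gave adjusted p-values of 0.297 to 0.949. Their intervals were wide, and the SE of the difference was 0.73 for Myl9 and 0.47 for Tpm2.

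Of the 5 SRF cofactor genes that could be tested, 0 were called in either knockdown by edgeR with all libraries. With Sin3a knockdown replicate 3 left out, Elk3, a ternary complex factor, was called higher after Fam60a knockdown (log2 difference 0.60, adjusted p = 0.00218) and after Sin3a knockdown (0.62, adjusted p = 0.00198). In that fit Mrtfb was called lower after Fam60a knockdown and Elk1 lower after Sin3a knockdown (-0.29, adjusted p = 0.0304). Mrtfa averaged 85.9 ± 2.61 CPM in controls, 82.6 ± 6.53 in Fam60a knockdown and 99.8 ± 33.9 in Sin3a knockdown (SD, n = 3). Mrtfb averaged 68.0 ± 6.81, 51.2 ± 3.03 and 50.5 ± 18.7 CPM. Its log2 difference after Fam60a knockdown was -0.41 (SE 0.25, adjusted p = 0.547), and -0.40 (SE 0.09, adjusted p = 0.0211) without Sin3a knockdown replicate 3. Myocardin was at the limit of detection, with 3, 5 and 1 reads in the 3 groups. Of the cytoplasmic actins, Actb averaged 193.9 ± 8.95 CPM in controls, 191 ± 16.6 in Fam60a knockdown and 228 ± 51.7 in Sin3a knockdown. Actb had up to 0.502 reads per exon base, above the highest member value of 0.309. Duplicate reads had been removed, which limits such counts, and the part of this in the Actb values was not tested. Actg1 averaged 5.85 ± 1.33, 10.0 ± 1.85 and 12.7 ± 8.41 CPM, but 37.4% of its 50-base windows occur in other genes' transcripts (9.12% for Actb), so its count is uncertain.

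Other lists of genes that serum response factor is known to regulate gave few calls. Of 25 tested genes for other actins and actin-binding proteins, 0 were called after Fam60a knockdown and 1 rose after Sin3a knockdown, Zyx, which encodes the adhesion protein zyxin (56.1 ± 10.8 to 99.9 ± 23.2 CPM, log2 difference 0.83, adjusted p = 0.039, or 0.63 and 0.0256 without Sin3a knockdown replicate 3). The counts without Sin3a knockdown replicate 3 were 4 higher and 0 lower for Fam60a, and 3 higher and 2 lower for Sin3a. The list's median log2 difference after Fam60a knockdown was 0.09, against -0.49 for the members. Of 10 tested immediate early genes, 0 were called in either comparison with all libraries. Without Sin3a knockdown replicate 3, 2 immediate early genes were called lower and 0 higher for Fam60a, and 2 higher and 0 lower for Sin3a.

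The remaining smooth muscle contractile genes did not share 1 direction. Of 11 tested, 1 rose and 0 fell after Fam60a knockdown, and 3 rose and 2 fell after Sin3a knockdown. Without Sin3a knockdown replicate 3 the counts were 2 higher and 0 lower, and 3 higher and 3 lower. Itga8, an integrin subunit of contractile cells, rose in both, from 10.9 ± 4.69 CPM to 56.2 ± 21.5 in Fam60a knockdown (log2 difference 2.37, SE 0.46, adjusted p = 0.0332) and to 49.1 ± 22.5 in Sin3a knockdown (2.19, SE 0.46, adjusted p = 0.0206). After Sin3a knockdown the intermediate filament gene Synm rose from 7.42 ± 2.47 to 33.9 ± 20.1 CPM (log2 difference 2.17, or 1.59 without replicate 3) and the caldesmon gene Cald1 from 109 ± 20.9 to 179.9 ± 29.2. Casq2, which encodes a calcium store protein, fell from 9.04 ± 2.34 to 1.00 ± 0.897 CPM, and Synpo2 from 4.31 ± 0.521 to 1.79 ± 0.662. After Fam60a knockdown their log2 differences were -0.99 and -0.96, neither called (adjusted p = 0.32 and 0.172). Without Sin3a knockdown replicate 3 the adjusted p-values were 0.066 and 0.0585. The list's median log2 difference after Fam60a knockdown was -0.16 with all libraries. Myh11, the smooth muscle myosin heavy chain, was low. It averaged 1.01 CPM in controls, 0.961 in Fam60a knockdown and 4.16 in Sin3a knockdown, where replicate 3 held 10.2. Smtn, from the same list, was not low, at 115 ± 13.1, 133 ± 0.153 and 133 ± 31.6 CPM in the same order. It was not called in either knockdown. Among other contractile markers, Lmod1 averaged 3.74, 1.88 and 3.15 CPM and Des 40.7, 36.5 and 25.4 CPM in the same order. Des stood at 20.9, 13.9 and 41.4 CPM in Sin3a knockdown replicates 1 to 3, and its log2 difference from control was -0.71 (SE 0.37, adjusted p = 0.27) with all libraries and -1.22 (SE 0.26, adjusted p = 0.0108) without replicate 3.

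Summed levels of markers of other cell types differed between the groups. The total of 12 cardiac and skeletal muscle markers was 78.5 to 133 CPM in controls, 40.0 to 49.2 in Fam60a knockdown and 23.0 to 32.7 in Sin3a knockdown, without overlap, and Myf5 was at 0 in all libraries. Of 6 tested, 0 were called after Fam60a knockdown and 2 fell after Sin3a knockdown: Myl7, the atrial myosin light chain (8.87 ± 1.60 to 1.49 ± 0.654 CPM), and Ttn, titin (70.4 ± 27.7 to 18.1 ± 7.45 CPM). Of the 6, 4 were called lower after Fam60a knockdown and 3 after Sin3a knockdown without Sin3a knockdown replicate 3. The 13 primitive endoderm markers summed to 1676 to 3683 CPM in controls, with replicate 3 the highest, to 3350 to 4760 in Fam60a knockdown and to 3822 to 8037 in Sin3a knockdown. Gata6, a regulator of that lineage, rose after Sin3a knockdown from 85.0 ± 45.1 to 208 ± 12.9 CPM (log2 difference 1.29, SE 0.30, adjusted p = 0.029), and stood at 192 ± 20.1 CPM in Fam60a knockdown (adjusted p = 0.0792, or 0.0361 with the replicate number as a block). It was the 1 marker of the 13 called after Sin3a knockdown.

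The 6 stem cell markers summed to 1156 to 1299 CPM in controls, 983.7 to 1137 in Fam60a knockdown, below every control, and 1137 to 1234 in Sin3a knockdown. Among them 0 were called in edgeR with all libraries, against 1 called lower after Fam60a knockdown without Sin3a knockdown replicate 3. Of 6 tested fibroblast markers, S100a4 rose after Fam60a knockdown (4 reads in controls, 48 in Fam60a knockdown and 0 in Sin3a knockdown, adjusted p = 0.0264). This gene passed the filter on low counts only through its Fam60a knockdown libraries, so it is not a free test of this difference. After Sin3a knockdown Thy1 fell from 24.7 ± 3.42 to 6.87 ± 2.44 CPM and Twist1 rose from 12.1 ± 2.01 to 26.1 ± 9.21 CPM. The part of these cell type markers in the members' values was not tested. The calls on list genes were uneven in stability. After Fam60a knockdown the 3 calls on Itga8, S100a4 and Lats2 were all lost when any 1 Fam60a knockdown or control library was left out, and 2 were lost without Sin3a knockdown replicate 1 (adjusted p up to 0.18). Of the 13 calls after Sin3a knockdown, Casq2, Myl7, Ttn, Thy1 and Axl held in all 18 alternatives. Leaving out Sin3a knockdown replicate 3 ended 0 of the 13. Leaving out 1 other library ended between 3 (Fam60a knockdown replicate 3) and 8 (control replicate 1), with 5 lost without Sin3a knockdown replicate 2 and 6 without each of the rest (adjusted p up to 0.161).

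**Figure D5:**
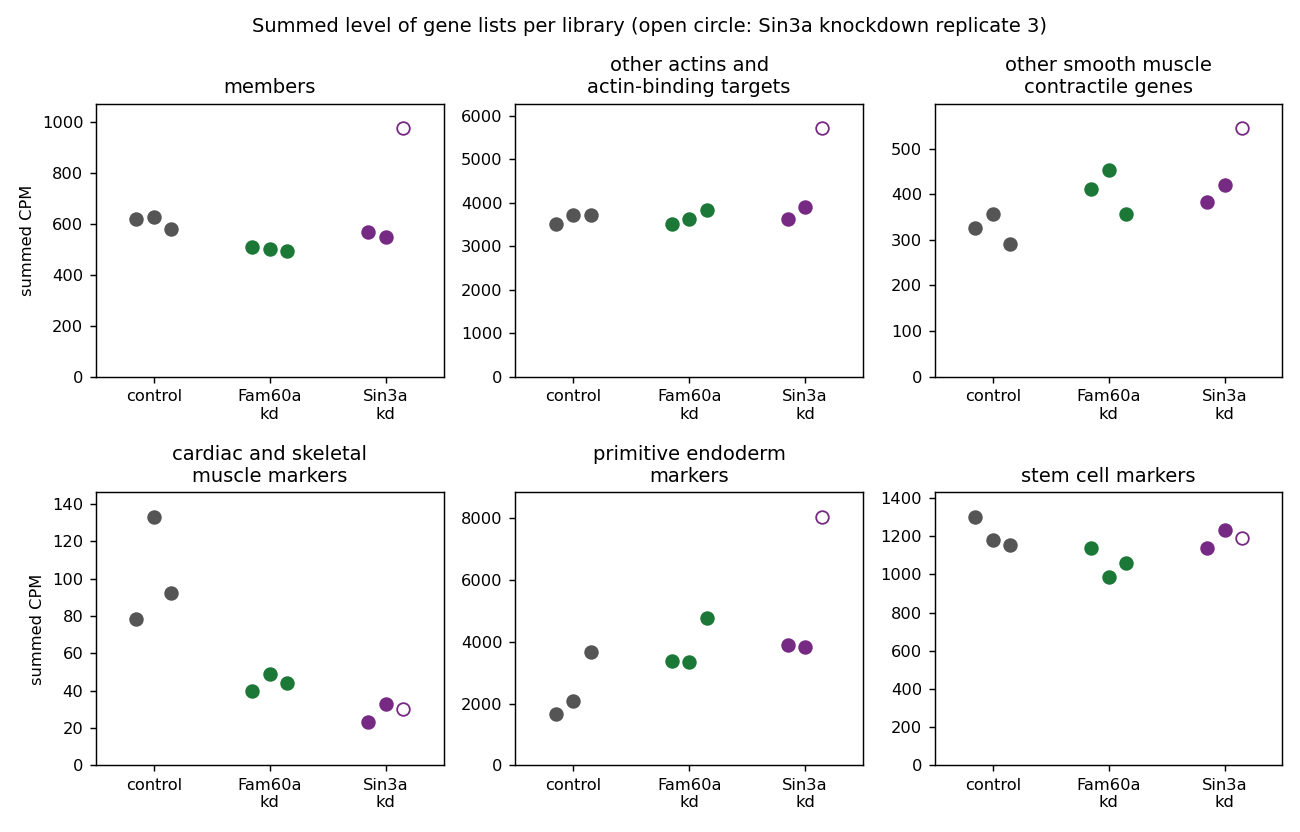
Summed CPM of the members and 5 other gene lists, 1 panel each with a linear axis from 0, with 1 point per library and an open circle for Sin3a knockdown replicate 3. The cardiac and skeletal muscle sum is lower in both knockdowns (23.0 to 49.2 CPM) than in controls (78.5 to 133 CPM). Ttn alone holds 51.0 to 102 CPM of the control sum. The stem cell sum is 983.7 to 1137 CPM in Fam60a knockdown against 1156 to 1299 in controls.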

How the data were processed

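Total RNA of 9 libraries was sequenced as single 50-base reads from a TruSeq Stranded preparation, per the labels' protocols. The authors deposited whole-number read counts per Ensembl gene, not normalized. STAR 2.4.0j, Picard, featureCounts and Subread are named in the submitters' processing notes, and the alignment name in the deposited tables says that duplicate reads had been removed, which limits the counts of abundant genes. The highest member value was 0.309 reads per exon base (Srf). The build and annotation used in counting are not given in the sources used here. Symbols and positions came from GENCODE M21 on GRCm38, which held 32937 of the 37990 IDs, and 4 list entries under older names had no match.

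Counts were fitted in R 4.3.3 with edgeR 4.0.16: filterByExpr, TMM scaling, 1 model of 3 groups over all 9 libraries, robust quasi-likelihood F-tests and Benjamini-Hochberg adjustment over 14465 genes, with calls at an adjusted p under 0.05. Every adjusted p is edgeR's unless DESeq2 1.42.0 is named. Each SE follows from the coefficient and the F value, and the biological coefficient of variation was 0.25. A count of 0 allows up to 3 counts, 0.391 to 1.15 CPM per library. Intervals and this floor cover counting error only.

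Deviations from group means correlated by 0.178 to 0.622 between same-numbered libraries (9 of 9 over 0.1) and by -0.448 to 0.113 between others, so the numbers pair the samples, though the labels do not say how. In the fit of all 9 libraries the block changed no call on a member.

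Named genes were all 10 members, both targets, Mrtfa, Mrtfb, Actb, Actg1 and, per list, up to 3 risen and 3 fallen genes with the smallest adjusted p among those called against control. Genes outside this rule (Myocd, Elk1, Elk3, Myh11, Smtn, Des, Lmod1, Myf5, Pcsk7, Ap3m1) were named after their values were seen. The members and lists were chosen with earlier results of these data known, and 1 further list is not reported here. Alternatives were RLE and upper-quartile scaling, DESeq2, no filter, the block, a GC correction (loess span 0.3), both together, only the 6 libraries compared and each library left out. The block over 8 libraries, without Sin3a knockdown replicate 3, was added after seeing the data. The fit was tested on simulated data.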

Additional observations from a re-analysis of the deposited data

Results flagged for a closer look

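Of the genes named here, 5 differed between the Fam60a and Sin3a knockdowns by the edgeR test of the difference itself, and none of them is a member. Among them are the hairpins' targets. Sinhcaf (Fam60a) was lower in Fam60a knockdown than in Sin3a knockdown by -1.43 on the log2 scale (adjusted p = 0.0183), and Sin3a was higher by 0.78 (adjusted p = 0.012). Synm was lower in Fam60a knockdown by -2.37 (adjusted p = 0.03), with 4.90 to 8.34 CPM against 19.5 to 56.9 CPM in Sin3a knockdown. Thy1 was higher in Fam60a knockdown by 1.82 (adjusted p = 0.0183), in 3 of 3 libraries. S100a4 had 48 reads in Fam60a knockdown and 0 in Sin3a knockdown, 11.5-fold higher when a floor of 3 counts over the group replaced the 0. That ratio leaves out the counting error of the 48 reads. Its fitted log2 difference of 6.85 (adjusted p = 0.0166) depends on the prior count and is no bound. S100a4 passed the filter on low counts only through its Fam60a knockdown libraries, so it is not a free test of this difference. Over the 18 alternatives these calls held in 13 for Sinhcaf, 14 for Sin3a, 9 for Synm, 13 for Thy1 and 13 for S100a4.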

How the results depend on the processing

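The members that passed the filter of each setting were all below 0 in Fam60a knockdown in the 19 settings run, the main one included (8 members, without Acta2, with the 6 libraries alone, 10 with no filter and 9 otherwise). Counts of calls depended on the setting. For Fam60a knockdown against control, 423 genes were called, and 1184 with DESeq2, 887 with the replicate block, 743 with the GC correction, 1741 with GC correction and replicate block, 1827 with the 6 libraries alone, 5842 with the block over 8 libraries and 11 to 2495 with 1 library left out. Members called went from 0 to 4 with the 6 libraries, 7 with the block over 8 and 0 to 6 with 1 library left out. For Sin3a knockdown against control, 1475 genes were called, and 2538 with DESeq2, 2563 with GC correction, 3937 with GC correction and block, 739 with the 6 libraries, 6975 with the block over 8 and 521 to 3606 with 1 left out. Members called were 1, 2 with GC correction, 2 with GC correction and block, 0 with the 6 libraries, 5 with the block over 8 and 0 to 5 with 1 left out. For Fam60a against Sin3a knockdown, 443 genes were called, and 1290 with DESeq2, 672 with the replicate block, 1086 with GC correction, 2000 with GC correction and block, 5321 with the block over 8, 0 with the 6 libraries (edgeR, 1760 at an unadjusted p under 0.05) and 48 to 2166 with 1 left out. Members called were 0, 2 with DESeq2, 2 with GC correction, 2 with both, 2 with the block over 8 and 0 to 1 with 1 left out. Tpm2 in Sin3a knockdown ran from -0.58 (without Sin3a knockdown replicate 3, a reversal) to 0.68 with 1 library left out and reversed to -0.67 with the block over 8. GC correction turned the Sin3a calls from 38.4% to 59.8% higher, with the median of all genes going from -0.01 to 0.10, and the Fam60a against Sin3a calls from 71.3% to 42.5% higher. DESeq2 gave 58.3% for the latter. Among single genes, alternatives agreed in side of the threshold and sign in 185 of the Fam60a, 328 of the Sin3a and 202 of the direct comparisons, lost a call in 31, 66 and 28, and gained one in 17, 8 and 9. Uncalled values changed sign in 0, 10 and 11. The cause of these shifts was not tested. Depth limits Acta2, Actg2, Tagln and Cnn1, which had 71 control reads or fewer.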

Other observations

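Genes that the Hippo effectors YAP and TEAD share with serum response factor summed to 789.8 to 912.1 CPM in controls, 959.6 to 1038 in Fam60a knockdown and 951.5 to 1485 in Sin3a knockdown, so that every knockdown library was above every control. Of 9 tested, 1 rose after Fam60a knockdown and 1 rose and 1 fell after Sin3a knockdown. Without Sin3a knockdown replicate 3 the counts were 2 higher and 0 lower, and 2 higher and 2 lower. Lats2, a kinase that restrains YAP, rose in both, from 13.1 ± 3.62 CPM (SD, n = 3) in controls to 41.2 ± 2.16 in Fam60a knockdown (log2 difference 1.65, SE 0.34, adjusted p = 0.041) and 32.9 ± 16.3 in Sin3a knockdown (1.31, SE 0.35, adjusted p = 0.0458, or 0.84 and 0.0213 without Sin3a knockdown replicate 3). Axl, a receptor tyrosine kinase, fell after Sin3a knockdown from 11.8 ± 2.26 to 3.67 ± 0.694 CPM (log2 difference -1.71, SE 0.30, adjusted p = 0.00994). The Lats2 call after Sin3a knockdown held in 9 of 18 alternatives and the Axl call in 18.

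The 8 mesoderm markers summed to 21.2 to 32.9 CPM in controls, 43.4 to 59.3 in Fam60a knockdown and 33.4 to 46.7 in Sin3a knockdown, and 0 of 4 tested were called in edgeR with all libraries. Without Sin3a knockdown replicate 3, 2 were called higher after Fam60a knockdown and 1 after Sin3a knockdown. In other lists, a full CArG box was found in 6 of 22 promoters of other actin and actin-binding genes (27.3%) and 1 of 12 of other smooth muscle genes, against 1.81% of all 27025 genes with a promoter. The actin list was also made of known targets of serum response factor, so its share is a description and not a test.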
